A study of Mus musculus with 23 samples.

Results

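The genes described here encode the enzyme families that oxidize, hydrolyze and conjugate drugs, dietary chemicals and steroids: cytochromes P450 of families 1 to 4 (CYP), carboxylesterases (CES), UDP-glucuronosyltransferases (UGT), sulfotransferases (SULT) and glutathione S-transferases (GST). Members were picked by gene name, and by a summed count of at least 100 over the 23 libraries. Of the 151 genes with such a name, 77 met that minimum, out of 55449 genes in the count table. They were 33 CYP, 12 CES, 7 UGT, 6 SULT and 19 GST genes. The other 74 genes were below the minimum, and 23 of them had no count in any library. The counts just inside the minimum were 146 for Gsto2, 162 for Cyp4x1 and 176 for Ces1b, and those just outside it were 97.97 for Gsta2, 92 for Cyp2c23 and 90 for Ugt2b1. Cyp1a1, the best known target of the aryl hydrocarbon receptor, was not a member, with 10 counts in all.

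RNA was sequenced from the colon of male C57BL/6 Cdx2Apcf/w mice, which carry 1 floxed and 1 wild-type Apc allele and a Cre under the Cdx2 promoter that acts mainly in the epithelium of the distal gut. Mice of 6 to 8 weeks received antibiotics in the water and a 60% high-fat diet (HFD), and were colonized with Bacteroides fragilis 638R, either with little bile salt hydrolase activity (BF BSHlow, empty vector) or with an added bile salt hydrolase gene (BF BSHhigh). Bile salt hydrolase removes the amino acid from conjugated bile salts. Normal colon after 2 weeks gave 4 BSHlow and 4 BSHhigh libraries. After 12 weeks non-tumor tissues gave 4 and 4 libraries and tumors 4 and 3. The paper calls the 12-week libraries independent samples and does not say that each came from a single mouse. All groups shared the genotype, the antibiotics, the diet and the B. fragilis strain, and none lacked the bacterium. The labels name the colon and no segment of it. The 3 BSHhigh tumor libraries carried repeated BSHlow headers in the count table, were identified as a group from the study's own supplementary table, and are called a, b and c. Totals were 12401388 to 17903008 estimated counts per library. Levels are given as CPM, the usual depth-scaled unit, with each count set against its library total after scaling between libraries.

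The 6 epithelial markers together stood at 4466 to 17176 CPM in all 23 libraries, so every library held epithelium. The defining hepatocyte gene Cyp7a1 and the pancreatic gene Cpa1 had 0 counts everywhere. Other genes of those lists did not: Alb reached 47.7 CPM in a BSHlow tumor, Ttr read 27.1 to 85.1 CPM in non-tumor tissues, and Cela1 read 43.5 to 133 CPM at 2 weeks, 329 to 772 CPM in non-tumor tissues and 48.1 to 84.9 CPM in tumors. Between tumors and non-tumor tissues Alb was called higher (3.93 ± 0.38) and Ttr (-1.14 ± 0.28) and Cela1 (-2.96 ± 0.16) lower, and all 3 were called higher at 12 than at 2 weeks. Squamous epithelial markers summed to 0 to 3.31 CPM outside tumors, and to 54.0 to 143 CPM in BSHlow and 29.5 to 38.6 CPM in BSHhigh tumors. The tumor sums came from Krt14, Krt4 and Krt13. Krt5 and Trp63, of the same list, read at most 0.202 and 0.177 CPM in tumors. The smooth muscle markers (Myh11, Actg2, Des, Acta2, Cnn1) summed to 4.84 to 134 CPM in normal colon at 2 weeks, 1101 to 6748 CPM in non-tumor tissues and 95 to 261 CPM in tumors. Fewer cells of a type and less RNA per cell cannot be told apart in these bulk libraries.

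Detoxification proceeds in stages. CYP enzymes add or expose a reactive oxygen, using electrons that Por passes on from NADPH, and CES enzymes split esters. UGT, SULT and GST enzymes then attach glucuronic acid, sulfate or glutathione, and efflux pumps export the products. In the gut these enzymes sit mainly in the differentiated epithelial cells that face the lumen. Many of the genes are tandem copies that respond to nuclear receptors such as Nr1i2 (the pregnane X receptor), Nr1i3 (the constitutive androstane receptor), Vdr and Hnf4a, to Ahr, or to the stress factor Nfe2l2. The Ces1 and Ces2 genes form 2 groups of 6 on chromosome 8, 7 Gstm genes lie on chromosome 3, 6 Cyp2d genes on chromosome 15, 5 Cyp2c genes on chromosome 19 and 4 Ugt2b genes on chromosome 5.

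Promoter sequence was at hand for 65 of the 77 members, from RefSeq on GRCm38.p6, as 250 bases before and 50 bases from the transcript start. Shown first are the 4 members that were higher in BSHhigh tumors, Ces2c, Ces2e, Sult1b1 and Cyp4f40, written 5′ to 3′ on the strand of the gene. Capitals would mark any of 5 motifs searched on both strands: a TATA box (TATAAA), a CDX core (TTTATG), an HNF4A motif (CAAAGTCCA), the core of the antioxidant response element (TGACNNNGC) and the core bound by the aryl hydrocarbon receptor (GCGTG). None of the 4 windows held any of them, so they stand in lower case.
Ces2c, chr8:104846818-104847117, plus strand: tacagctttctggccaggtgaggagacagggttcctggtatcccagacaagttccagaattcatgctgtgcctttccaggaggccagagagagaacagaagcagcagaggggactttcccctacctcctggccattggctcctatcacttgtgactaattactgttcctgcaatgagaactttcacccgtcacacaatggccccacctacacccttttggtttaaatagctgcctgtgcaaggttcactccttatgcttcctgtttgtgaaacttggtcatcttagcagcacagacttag
Ces2e, chr8:104926010-104926309, plus strand: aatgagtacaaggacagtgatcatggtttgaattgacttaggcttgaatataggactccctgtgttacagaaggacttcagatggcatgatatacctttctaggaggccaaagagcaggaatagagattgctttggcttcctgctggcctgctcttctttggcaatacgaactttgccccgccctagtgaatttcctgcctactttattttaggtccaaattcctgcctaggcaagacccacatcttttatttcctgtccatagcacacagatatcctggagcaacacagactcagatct
Sult1b1, chr5:87538146-87538445, minus strand: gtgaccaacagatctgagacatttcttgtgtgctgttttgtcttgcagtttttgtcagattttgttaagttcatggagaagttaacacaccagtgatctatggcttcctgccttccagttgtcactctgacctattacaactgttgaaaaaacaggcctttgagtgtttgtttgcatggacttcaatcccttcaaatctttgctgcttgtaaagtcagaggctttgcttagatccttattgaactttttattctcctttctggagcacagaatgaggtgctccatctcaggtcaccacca
Cyp4f40, chr17:32658636-32658935, plus strand: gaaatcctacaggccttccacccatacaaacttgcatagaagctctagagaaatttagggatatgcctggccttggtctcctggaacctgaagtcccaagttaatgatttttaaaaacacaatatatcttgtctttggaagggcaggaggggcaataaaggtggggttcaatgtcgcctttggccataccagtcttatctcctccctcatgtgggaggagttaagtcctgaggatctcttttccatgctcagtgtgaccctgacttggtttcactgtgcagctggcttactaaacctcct

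Next are 4 of the 5 members of the Cyp2c group on chromosome 19. Cyp2c65, Cyp2c68 and Cyp2c69 are shown because their promoters held the HNF4A motif, and Cyp2c55 is set beside them. The promoter of Cyp2c66, which held no HNF4A match, is not shown. Cyp2c55 and Cyp2c65 were abundant at 2 weeks, Cyp2c68 at 12 weeks, and Cyp2c69 stayed low.
Cyp2c55, chr19:39006769-39007068, plus strand: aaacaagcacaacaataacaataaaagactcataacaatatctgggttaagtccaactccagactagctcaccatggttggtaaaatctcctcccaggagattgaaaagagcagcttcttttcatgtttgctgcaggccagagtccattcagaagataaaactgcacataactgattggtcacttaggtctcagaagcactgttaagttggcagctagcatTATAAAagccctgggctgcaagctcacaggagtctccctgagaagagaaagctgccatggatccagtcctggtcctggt
Cyp2c65, chr19:39060756-39061055, plus strand: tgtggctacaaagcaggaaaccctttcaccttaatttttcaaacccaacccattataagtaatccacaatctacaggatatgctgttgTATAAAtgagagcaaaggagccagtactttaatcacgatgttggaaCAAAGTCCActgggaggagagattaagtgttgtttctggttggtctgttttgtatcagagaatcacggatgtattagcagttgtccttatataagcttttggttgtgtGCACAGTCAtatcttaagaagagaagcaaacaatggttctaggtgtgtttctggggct
Cyp2c68, chr19:39741052-39741351, minus strand: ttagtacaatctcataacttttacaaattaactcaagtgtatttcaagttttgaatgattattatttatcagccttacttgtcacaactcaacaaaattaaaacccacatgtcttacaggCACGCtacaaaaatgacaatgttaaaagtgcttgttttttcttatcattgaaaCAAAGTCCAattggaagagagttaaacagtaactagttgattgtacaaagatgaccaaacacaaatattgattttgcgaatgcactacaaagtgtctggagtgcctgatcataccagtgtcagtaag
Cyp2c69, chr19:39886720-39887019, minus strand: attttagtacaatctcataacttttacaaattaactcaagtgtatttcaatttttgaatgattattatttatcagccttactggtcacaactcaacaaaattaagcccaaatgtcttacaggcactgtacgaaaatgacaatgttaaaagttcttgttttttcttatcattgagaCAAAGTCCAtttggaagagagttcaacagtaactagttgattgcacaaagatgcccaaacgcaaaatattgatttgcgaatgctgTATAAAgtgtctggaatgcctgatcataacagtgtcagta

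Cyp2c55 held a TATA box that began 29 bases before the start and no HNF4A match. Cyp2c65, Cyp2c68 and Cyp2c69 each held the HNF4A motif, beginning 116, 77 and 75 bases before the start, and no other member promoter listed held it. Cyp2c65 also held a TATA box 162 bases and an antioxidant core 8 bases before the start, Cyp2c68 an aryl hydrocarbon receptor core 130 bases before it, and Cyp2c69 a TATA box 11 bases after it. The motif was thus in 3 of 65 member promoters (4.62%) and in 156 of the 32851 promoters listed (0.475%). All 3 lie in the same gene group, and the windows of Cyp2c68 and Cyp2c69 are nearly alike. They are thus not independent cases. Members also had a single promoter each, whereas the 32851 came from 27025 genes. The aryl hydrocarbon receptor core was in 24.6% of member promoters and 32.4% of all promoters, the antioxidant core in 10.8% and 12.4%, the CDX core in 15.4% and 11.9%, and the TATA box in 20% and 13.6%. These matches describe letters only, and none of the motifs overlapped in the windows printed.

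In normal colon at 2 weeks the members together took 1.28% of the scaled counts in BSHlow and 1.37% in BSHhigh mice, and in tumors 0.11% and 0.151%. Their summed level was 12797 ± 2243 CPM (SD, n = 4) in BSHlow and 13656 ± 3248 (n = 4) in BSHhigh normal colon. It was 4604 ± 1191 (n = 4) and 4062 ± 397 (n = 4) in the non-tumor tissues at 12 weeks, and 1097 ± 84.2 (n = 4) and 1514 ± 352 (n = 3) in tumors. These ranges did not overlap between 2-week colon, non-tumor tissues and tumors. The families differed in how far they fell. SULT genes went from 560 to 615 CPM on average in the non-tumor groups to 14.2 ± 1.64 (n = 4) in BSHlow and 65.9 ± 50.4 (n = 3) in BSHhigh tumors. GST genes went from 985 to 1093 CPM to 733 ± 95.6 (n = 4) and 814 ± 91 (n = 3).

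**Figure D1:**
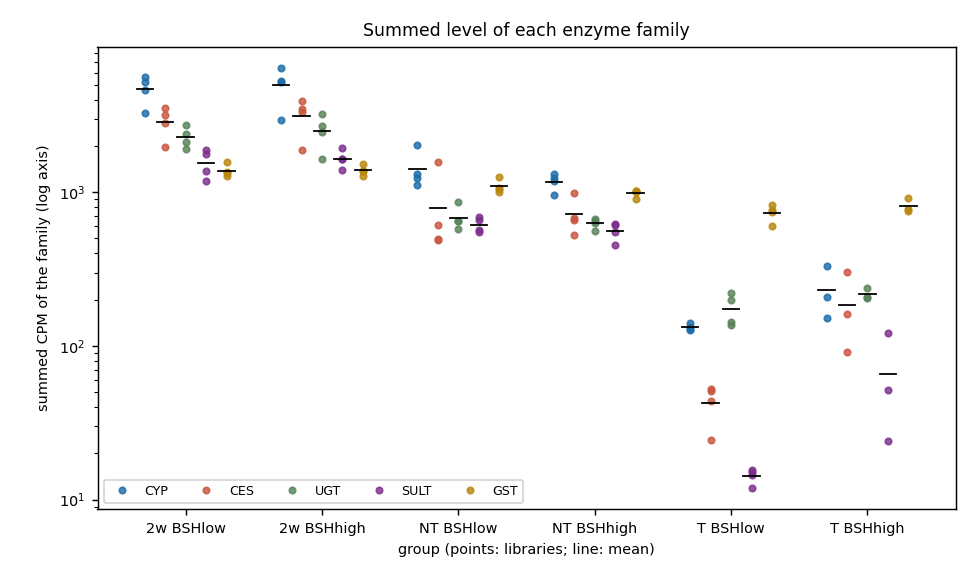
Summed CPM of the members of each enzyme family (log axis) in each library, by group (points are libraries, lines are means). GST genes stayed between 600 and 1561 CPM in all groups, and the SULT sum spanned 11.9 CPM in a BSHlow tumor to 1933 CPM at 2 weeks.

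Different members led in each state when levels were set per kilobase of exon. At 2 weeks Cyp2c55, which oxidizes arachidonic acid in the colon, had the highest mean, 881 CPM per kilobase (281 to 1287 over 8 libraries), and the esterase Ces2c followed at 491 (330 to 623), within the range of Cyp2c55. In the non-tumor tissues the range of the dehydroascorbate reductase Gsto1 (mean 140, 123 to 178) overlapped that of Ces2c (mean 134, 89.9 to 282), so that their order was not settled. In tumors the first 4 were GST genes, Gstp1 (99.4, 86.8 to 119), Gstm5 (88.1, 62.6 to 117), Gstm1 (62.8, 37.3 to 88.5) and Gsto1 (59.9, 34.7 to 98), with overlapping neighbours.

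**Figure D2:**
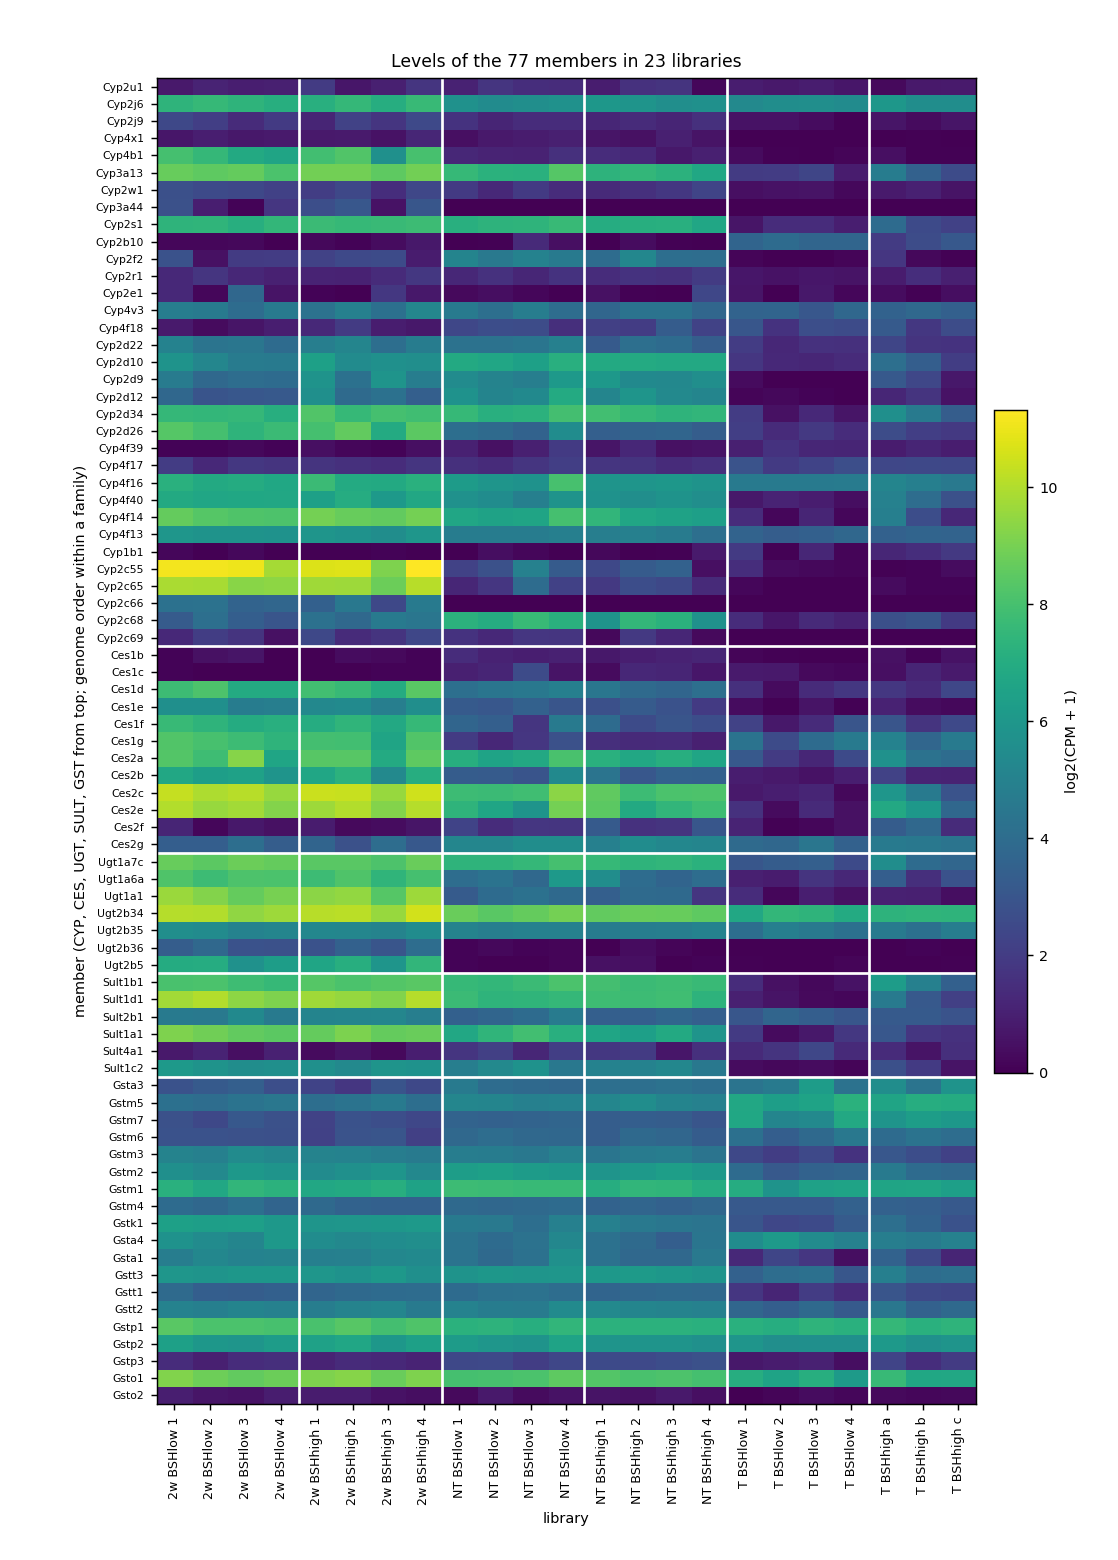
Level of each of the 77 members (rows, by family and genome order) in each of the 23 libraries (columns), as log2(CPM + 1). Brighter cells are higher: Cyp2c55 is brightest in the 2-week libraries, most CYP, CES, UGT and SULT rows are darkest in tumors, and Cyp2b10, Gstm5 and Gstm7 are brightest there.

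Tumors were then compared with the non-tumor tissues at 12 weeks, over both colonizations (7 against 8 libraries, edgeR's quasi-likelihood test, adjusted p under 0.05 and a log2 fold change past 1). Of 72 members tested, 49 fell and 7 rose, where 18.4% of the 16454 genes tested fell and 16.4% rose. The median log2 fold change was -2.06 over the members and 0.04 over all genes, and stayed at -2.06 with Cyp2c69, at 0 in all tumors, set to its bound. The other 5 members did not pass the filter on low counts. By family, 23 of 31 CYP genes, 9 of 12 CES, 4 of 5 UGT, 4 of 6 SULT and 9 of 18 GST genes fell. Within BSHlow mice 51 members fell and 8 rose (19.5% and 16.7% of all genes), and within BSHhigh mice 41 fell and 7 rose (14.8% and 14.6% of all genes).

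Among the CYP genes that act on drugs and steroids, Cyp2d12, Cyp2d9, Cyp2d34 and Cyp2d10 of the Cyp2d group fell far. Cyp2d12 read 33.5 to 119 CPM in the 8 non-tumor libraries (median 39.9), and at most 2.21 CPM in tumors. Its log2 fold change was -7.09 ± 0.46 (SE, adjusted p = 8.4e-09), and those of Cyp2d9, Cyp2d34 and Cyp2d10 were -6.39 ± 0.54, -4.91 ± 0.41 and -4.78 ± 0.30. All 6 Cyp2d members fell. Cyp2s1, an epithelial P450 that acts on retinoids, read 102 to 196 CPM in non-tumor tissues. In BSHlow tumors it read 0.579, 1.72, 1.70 and 0.919 CPM and in BSHhigh tumors 14.8, 4.78 and 3.55 CPM, with no overlap, and its log2 fold change was -5.56 ± 0.32 (adjusted p = 3.2e-09). Cyp3a13, a CYP3A form of the intestine, fell by 4.84 ± 0.40 on the log2 scale, and Cyp2c68 fell by 5.68 ± 0.38.

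Some P450 genes nearly vanished from tumors. Cyp2f2, which activates naphthalene in the airway, had a mean of 24.5 CPM in non-tumor tissues and 0.408 CPM in tumors, a ratio of 60.1, with 0 or 2 counts in each BSHlow tumor. Cyp2c65 went from 4.59 to 0.0838 CPM, a ratio of 54.8. Cyp2c69 had 0 counts in all 7 tumors and a mean of 1.61 CPM in non-tumor tissues, at least 78.1-fold lower when 3 counts over the 7 tumors are taken as the floor. Cyp2c55 (-4.82 ± 0.85) and the fatty acid hydroxylase Cyp4b1 (-3.38 ± 0.52) also fell, from levels that were already low at 12 weeks. Cyp2e1, which oxidizes ethanol, was near the limit in most libraries, and its change of -0.71 ± 1.02 did not pass (adjusted p = 0.545).

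The P450 genes that rose were Cyp2b10, Cyp1b1 and Cyp4f17. Cyp2b10 and Cyp1b1 met the minimum of 100 summed counts only through the tumor libraries. Their rise is thus tied to how the members were picked. Cyp2b10, the textbook target of the constitutive androstane receptor, read 11.6, 14.7, 11.8 and 12.1 CPM in BSHlow tumors and 2.95, 5.26 and 7.71 CPM in BSHhigh tumors. None of the 8 non-tumor libraries exceeded 1.56 CPM. Its log2 fold change was 5.16 ± 0.64 (adjusted p = 4.6e-06), while Nr1i3, the gene of that receptor, fell by 5.67 ± 0.56 from 1.71 to 9 CPM to at most 0.415 CPM. Cyp1b1, which hydroxylates estradiol, was low everywhere: it read 2.75, 0.0505, 1.32 and 0.0968 CPM in BSHlow and 1.35, 1.77 and 2.69 CPM in BSHhigh tumors, against at most 0.742 CPM in non-tumor tissues. The groups overlapped through 2 of the BSHlow tumors, and the log2 fold change was 3.01 ± 0.86 (adjusted p = 0.00605). Cyp4f17 rose by 1.06 ± 0.22 with overlapping groups, and without non-tumor BSHlow replicate 2, BSHlow tumor 1 or BSHlow tumor 4 it no longer passed. Cyp2j6 stayed at 39.7 to 61.9 CPM in tumors and 43.6 to 62.4 CPM in non-tumor tissues (-0.12 ± 0.08, adjusted p = 0.23).

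**Figure D3:**
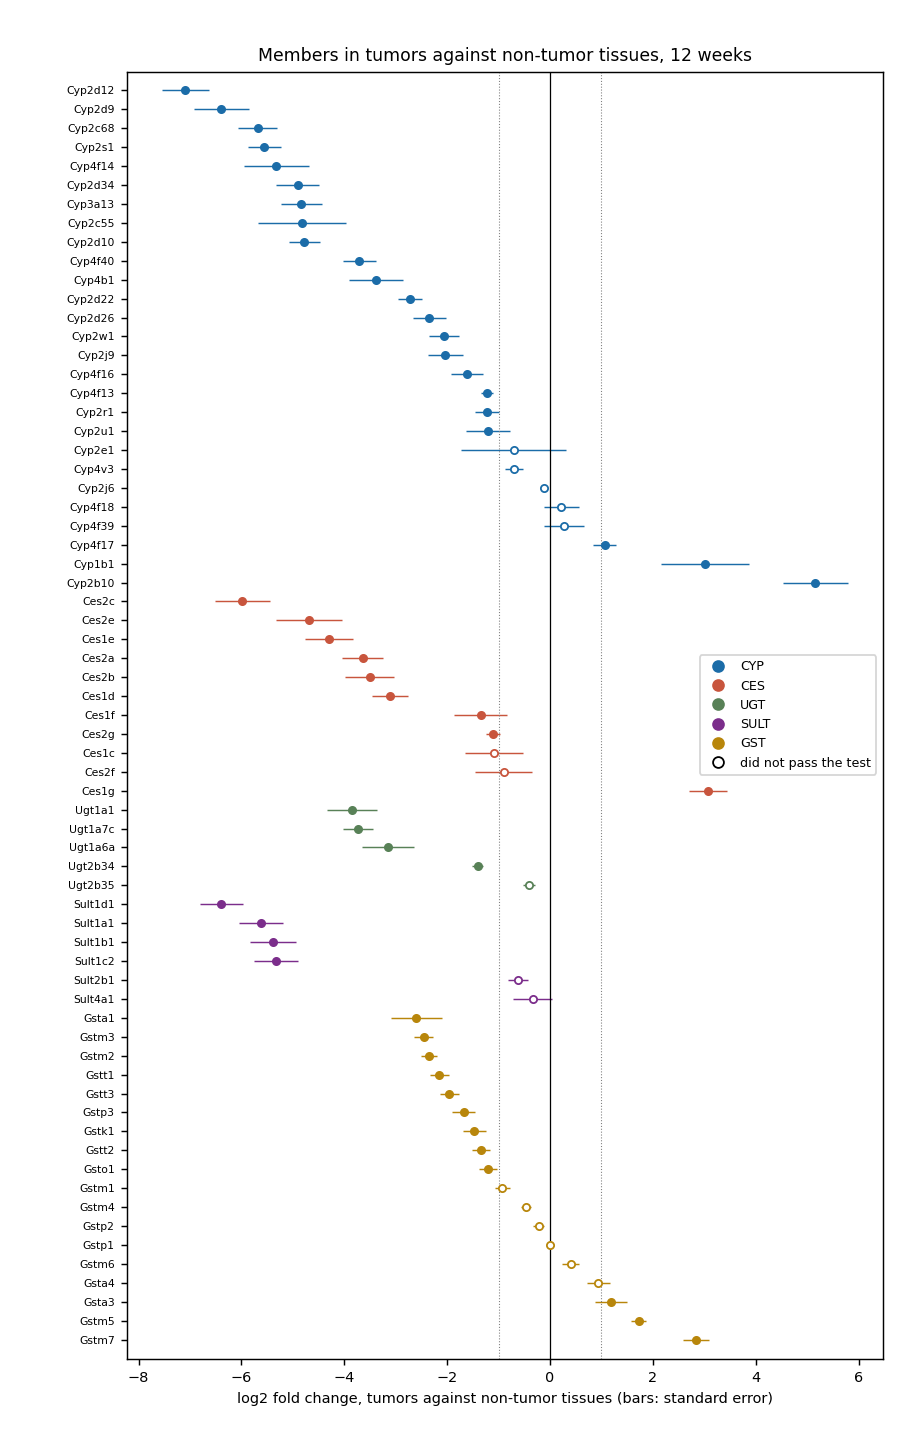
Log2 fold change of 67 members in tumors against non-tumor tissues at 12 weeks (7 against 8 libraries), by family; bars are standard errors, filled points passed the test, dotted lines mark a log2 fold change of 1 either way. The 5 members with at most 3 counts in every library of a group are left out, and most filled points lie left of 0.

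Most carboxylesterases fell, and Ces1g rose. Ces2c read 207 to 649 CPM in the non-tumor tissues. It fell to 0.723, 0.960, 1.23 and 0.194 CPM in BSHlow tumors and 61.0, 24.0 and 6.52 CPM in BSHhigh tumors, a log2 fold change of -5.98 ± 0.53 (adjusted p = 1.7e-07). Ces2e (-4.68 ± 0.64), Ces1e (-4.30 ± 0.47), Ces2a (-3.64 ± 0.40) and Ces1d (-3.12 ± 0.35) fell too. Ces1f fell by 1.35 ± 0.52 with overlapping groups, and its adjusted p of 0.0309 was lost without any 1 of 5 libraries (non-tumor BSHlow 4, non-tumor BSHhigh 1, BSHlow tumor 3, BSHhigh tumors b and c). Ces1g, a lipid esterase, went up from 0.965 to 5.96 CPM to 5 to 31.0 CPM, a log2 fold change of 3.07 ± 0.37 (adjusted p = 3.5e-06), with overlap between the highest non-tumor and the lowest tumor library.

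The sulfotransferases and glucuronosyltransferases ranged from strong falls to small changes. Sulfotransferases of phenols and catechols fell the most: Sult1d1 by 6.39 ± 0.42, Sult1a1 by 5.62 ± 0.43, Sult1b1 by 5.39 ± 0.45 and Sult1c2 by 5.33 ± 0.42 on the log2 scale, all without overlap. Sult1a1 read 57.8 to 239 CPM in non-tumor tissues and at most 7.31 CPM in tumors. Sult2b1, which sulfates cholesterol, and the neuronal Sult4a1 were not called, 1 of them only because its log2 fold change was within 1. Of the glucuronosyltransferases, Ugt1a1, the bilirubin-conjugating form, fell by 3.85 ± 0.49, Ugt1a7c by 3.73 ± 0.29 and Ugt1a6a by 3.15 ± 0.50. These 3 genes share their last exons, and the authors' software split the shared reads between them. The sum over all 8 Ugt1a genes, which the split cannot move, was 234 ± 69.0 CPM (n = 4) and 202 ± 34.1 (n = 4) in BSHlow and BSHhigh non-tumor tissues, and 10 ± 2.68 (n = 4) and 31.1 ± 22.0 (n = 3) in tumors. Ugt2b34 fell by only 1.41 ± 0.11, from 346 to 496 CPM to 111 to 181 CPM, and per kilobase it had the highest mean of the 7 UGT members in tumors (35.3 CPM per kilobase, 25.8 to 42.1).

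Glutathione S-transferases changed in both directions. Gstm7 read 107, 35, 39.2 and 112 CPM in BSHlow and 57.7, 77.5 and 64.5 CPM in BSHhigh tumors, all above the 6.98 to 11.8 CPM of the non-tumor tissues (2.84 ± 0.25, adjusted p = 1.4e-07). Gstm5 rose by 1.72 ± 0.14, from 29.5 to 46.5 CPM to 80.0 to 149 CPM. Their neighbours Gstm3 (-2.46 ± 0.19) and Gstm2 (-2.35 ± 0.15) fell, while Gstm1 (-0.93 ± 0.15), Gstm4 (-0.47 ± 0.10) and Gstm6 (0.40 ± 0.16) stayed within a log2 fold change of 1. Gsta3 rose by 1.18 ± 0.31 with overlapping groups, and its call was lost without BSHlow tumor 3. Gsta4, which conjugates lipid peroxidation products, came close at 0.94 ± 0.22. Gstt1 (-2.15 ± 0.18), Gstt3 (-1.96 ± 0.18), the mitochondrial and peroxisomal Gstk1 (-1.47 ± 0.22) and Gsto1 (-1.21 ± 0.17) fell.

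Gstp1, which conjugates electrophiles, read 138 to 176 CPM in non-tumor tissues and 134 to 184 CPM in tumors, and its log2 fold change of 0.00 ± 0.07 was -0.04 with RLE size factors and with DESeq2. The counting divided reads between Gstp1 and its near copy Gstp2 in all 23 libraries. Their sum was 228 ± 31.7 and 208 ± 7.73 CPM in the non-tumor groups (n = 4 each), and 197 ± 12.0 (n = 4) and 221 ± 27.8 CPM (n = 3) in tumors, also overlapping.

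Markers of differentiated epithelium moved the same way between these tissues. All 6 mature colonocyte markers and all 5 goblet cell markers fell in tumors, with medians of -5.72 and -5.21 on the log2 scale, and all 5 stem cell and WNT markers rose, with a median of 2.86. The colonocyte markers summed to 2261 to 5121 CPM in non-tumor tissues and 62.2 to 951 CPM in tumors, and the goblet markers to 11838 to 31980 CPM and 48.8 to 4215 CPM. Of the 6 epithelial markers Krt18 rose (1.33 ± 0.14) and Krt8 fell (-1.07 ± 0.16), with a list median of -0.68, and the others, among them Vil1 (-0.96 ± 0.17) and Epcam (-0.41 ± 0.10), were not called. All 5 smooth muscle markers fell as well. The part of these cell types in the enzyme changes was not tested.

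The question of the bacterial bile salt hydrolase came next, in tumors (3 BSHhigh against 4 BSHlow libraries). Of 62 members tested, 4 were higher in BSHhigh tumors (Ces2c, Ces2e, Sult1b1 and Cyp4f40) and 0 lower, where 0.463% of the 15325 genes tested were higher and 0.0131% lower. The median over the members was 0.59 on the log2 scale, and -0.03 over all genes. The other 15 members did not pass the filter on low counts. Sult1b1, a sulfotransferase of phenols and thyroid hormones, read 75.4, 29.8 and 9.98 CPM in BSHhigh tumors a, b and c and 1.69, 0.404, 0.189 and 0.484 CPM in BSHlow tumors (5.74 ± 0.85, adjusted p = 0.0421). Ces2e read 112, 65.1 and 12.8 CPM against 2.07, 0.253, 1.56 and 0.435 CPM (5.82 ± 0.86, adjusted p = 0.0421). In each of the 4 genes every BSHhigh tumor lay above every BSHlow tumor, and a was highest and c lowest of the 3.

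The other pair showed the same order of tumors. Ces2c read 61.0, 24.0 and 6.52 CPM in BSHhigh tumors against the 0.194 to 1.23 CPM given above for BSHlow tumors (5.26 ± 0.80, adjusted p = 0.0458). Cyp4f40, a member of the fatty acid hydroxylase family, read 30.4, 15.8 and 6.00 CPM against 0.675, 1.21, 0.850 and 0.339 CPM (4.47 ± 0.60, adjusted p = 0.0365). No BSHhigh tumor reached the lowest non-tumor library in Ces2c or Sult1b1. In Ces2e tumors a and b lay above the lowest non-tumor library, at 57.9 CPM, and in Cyp4f40 tumor a did, against 28.6 CPM. These calls rested on few libraries: without any 1 of the 4 BSHlow tumors, or without BSHhigh tumor a or b, 0 members passed, and without tumor c 9 were higher and 1 lower. DESeq2 called 18 members higher and 1 lower, and a fit over all 23 libraries called 19 higher, each including the same 4.

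**Figure D4:**
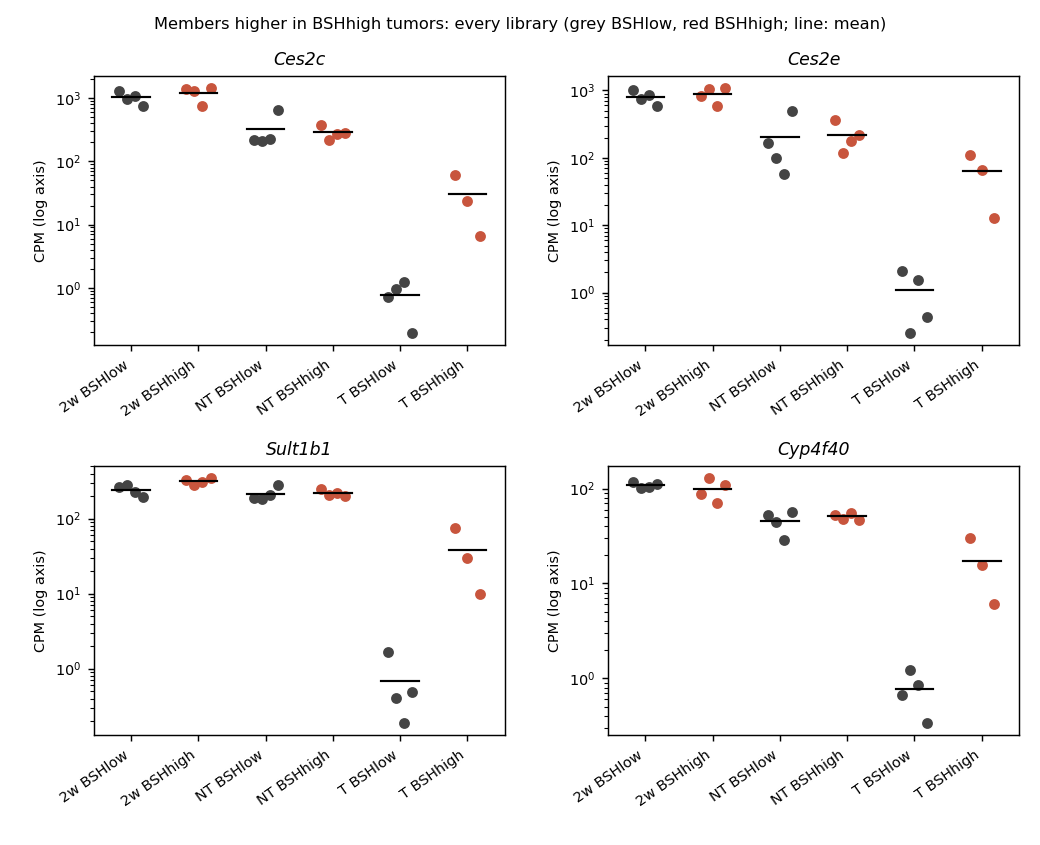
CPM (log axis) of Ces2c, Ces2e, Sult1b1 and Cyp4f40 in every library, by group; grey points are BSHlow, red points BSHhigh, lines are means. The 3 BSHhigh tumors lie above all 4 BSHlow tumors in each panel, while the colonizations overlap in the non-tumor tissues.

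Other members had large differences that did not pass. Sult1d1 read 23.3, 7.83 and 3.36 CPM against 0.964, 0.505, 0.236 and 0.145 CPM, with no overlap (4.58 ± 0.80, adjusted p = 0.0553). Sult1c2 (3.72 ± 0.78, adjusted p = 0.0798), Ces2a (2.70 ± 0.63, adjusted p = 0.104), Cyp2s1 (2.62 ± 0.58, adjusted p = 0.0876) and Cyp3a13 (2.32 ± 0.63, adjusted p = 0.155) also stood higher in every BSHhigh tumor. Cyp2d9 and Cyp2d34 had log2 differences of 5.98 ± 1.21 (adjusted p = 0.0714) and 4.27 ± 0.77 (adjusted p = 0.0577). Cyp2d9 had only 5, 0, 0 and 0 counts in the BSHlow tumors, so the size of its difference rests on values near the floor. In the other direction lay Cyp2b10, whose 3 BSHhigh tumors were below all 4 BSHlow tumors (-1.26 ± 0.31, adjusted p = 0.118), and Gsta4, again without overlap (-0.79 ± 0.24, adjusted p = 0.212). The share of all genes that separated between the 3 BSHhigh and 4 BSHlow tumors is not given here. The lack of overlap therefore only describes these members. Gstp1 (0.14 ± 0.11), Gstm1 (-0.01 ± 0.26) and Gsto1 (0.33 ± 0.29) overlapped between the colonizations. Ugt1a1 (-0.06 ± 0.75) and Ces1f (0.49 ± 0.72) had standard errors too wide to set apart a change of 1 from none.

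Whether the effect of BSHhigh differed between tumors and non-tumor tissues was tested as an interaction over the 15 libraries. It passed for 11 of 72 members, all with a larger effect in tumors (0.972% of 16454 genes in that direction, 0.00608% in the other). The 11 were Sult1b1, Sult1c2, Sult1d1, Ces2c, Ces2e, Cyp4f40, Cyp2d9, Cyp2d10, Cyp2d34, Cyp2s1 and Gstt1. For Sult1b1 the difference of the 2 effects was 5.72 ± 0.79 on the log2 scale (adjusted p = 0.00595), with 181 to 278 CPM in the 8 non-tumor libraries. For Cyp4f40 it was 4.30 ± 0.60 (adjusted p = 0.00595). This comparison shares its tumors with the one before it. Leaving out single libraries gave 5 to 18 members. Without tumor c it gave 18, and without BSHlow tumor 4 it gave 5. The counts fell to 6 without non-tumor BSHhigh replicate 2, 3 or 4 or tumor a, and to 7 without BSHlow tumor 2 or 3 or tumor b.

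Differentiation markers stood highest in the same tumors. The mature colonocyte markers summed to 951, 347 and 194 CPM in BSHhigh tumors a, b and c and 135, 144, 81.1 and 62.2 CPM in BSHlow tumors. The goblet markers summed to 4215, 1222 and 489 CPM against 108, 102, 84.9 and 48.8 CPM. Of the colonocyte list 2 of 6 genes passed (Slc26a3, Aqp8), and of the goblet list 2 of 5 (Fcgbp, Zg16). The interaction with tissue passed for 5 of the 6 colonocyte genes, all but Car1, and for 4 of the 5 goblet genes. Smooth muscle markers read 261, 166 and 136 CPM against 95 to 196 CPM. In non-tumor libraries the colonocyte sum was 2261 CPM or more. The part of differentiated cells in the enzyme differences was not tested.

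In the non-tumor tissues themselves no member passed between BSHhigh and BSHlow. Of 69 members tested 0 passed in either direction by edgeR or by DESeq2, as for all 14933 genes by edgeR (0% higher, 0% lower), with 10 members and 1377 genes at an unadjusted p under 0.05. The members ranged from -1.13 ± 0.76 (Ces1c) to 0.92 ± 0.50 (Ces2f), with a median of -0.25 beside -0.01 over all genes. Of the members named throughout, Ces1g was lowest at -1.05 ± 0.44 and Sult1d1 highest at 0.19 ± 0.13. The smallest adjusted p, 0.354, was that of Gstm1. Its levels were 218, 212, 199 and 197 CPM in BSHlow and 132, 176, 171 and 128 CPM in BSHhigh tissues, which did not overlap (-0.44 ± 0.11). Non-tumor BSHlow replicate 4 stood apart in several members, among them Ces2c (649 CPM against 207 to 230 CPM) and Cyp4f14 (252 CPM against 89.8 to 102 CPM), and it had the highest colonocyte marker sum of the 8, 5121 CPM.

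At 2 weeks no member passed either. Of 67 members tested 0 passed by edgeR or DESeq2, where 0.00727% of the 13752 genes were higher and 0% lower by edgeR, and 13 members and 935 genes had an unadjusted p under 0.05. Members ranged from -0.79 ± 0.31 (Gsta3) to 1.36 ± 0.45 (Cyp2d12), around a median of 0.03. The members named throughout lay between -0.37 ± 0.16 (Gstm1) and 0.37 ± 0.14 (Sult1b1).

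Colon without tumors was next compared between 2 and 12 weeks (8 non-tumor libraries against 8 of normal colon). Of 75 members tested, 30 were lower and 14 higher at 12 weeks, where 8.02% of 15532 genes were lower and 18.5% higher, with a median of -0.65 over the members and 0.01 over all genes (the member median is the same with the 2 genes at 0 at their bound). Lower were 8 of 12 CES, 6 of 7 UGT, 11 of 31 CYP, 3 of 6 SULT and 2 of 19 GST genes. Higher were 6 CYP, 4 CES, 3 GST and 1 SULT gene, a share close to that over all genes. Ces1c had 172 of its 264 counts in the non-tumor libraries, and Ces1b 133 of its 176. Both thus met the count minimum only through those libraries. Their rise here, and the fall of Ces1b in tumors, are tied to how the members were picked. Time on the diet, the age of the mice, the time since colonization and the piece of colon taken cannot be told apart here.

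Cyp2c55 read 2260, 2242, 2101 and 895 CPM in BSHlow and 1708, 1733, 560 and 2567 CPM in BSHhigh colon at 2 weeks. At 12 weeks its highest value was 30.1 CPM and its lowest 0.371 CPM, so the groups were far apart (-7.67 ± 0.62, adjusted p = 6.8e-08). Cyp2c65 went from 438 to 1107 CPM to 1.35 to 15.1 CPM (-7.46 ± 0.47, adjusted p = 5.5e-09). Their neighbour Cyp2c66 had a mean of 15 CPM at 2 weeks and 0 counts in all 8 libraries at 12 weeks, at least 615-fold lower. Cyp3a44 had a mean of 3.79 CPM (0.0943 to 7.52) and then 0 counts, at least 155-fold lower. Both bounds take 3 counts over the 8 libraries as the floor. Cyp2c66 and Cyp3a44 met the count minimum only through the 2-week libraries, so their fall is tied to how the members were picked. Cyp2c68 went the other way, from 7.01 to 24.6 CPM to 51.6 to 200 CPM (3.22 ± 0.29, adjusted p = 1.8e-07). The counting divided some reads between Cyp2c genes, in 14 libraries for Cyp2c68 and in none for Cyp2c55.

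Esterases and glucuronosyltransferases also fell far. Ces1g read 97.4 to 306 CPM at 2 weeks and 0.965 to 5.96 CPM at 12 weeks (-6.69 ± 0.32, adjusted p = 5.5e-10), and its highest tumor, at 31.0 CPM, stayed below every 2-week library. Cyp4b1 fell by 7.13 ± 0.40, from 50.7 to 300 CPM to at most 1.94 CPM. Ugt2b5 had a mean of 106 CPM at 2 weeks and 0.135 CPM at 12 weeks, a ratio of 786, and Ugt2b36 9.25 and 0.110 CPM, a ratio of 84.2. Ugt2b5 and Ugt2b36 also met the count minimum only through the 2-week libraries. Ugt1a1 fell from 324 to 803 CPM to 2.38 to 17.8 CPM (-5.67 ± 0.33), but Ugt1a7c, which shares its last exons, by only 1.05 ± 0.11. Both values depend on how the shared reads were split. The sum over all 8 Ugt1a genes was 1246 ± 165 CPM in BSHlow and 1215 ± 309 in BSHhigh colon at 2 weeks (SD, n = 4 each). At 12 weeks it was 234 ± 69.0 and 202 ± 34.1 CPM in the non-tumor tissues (n = 4 each). Ces1f (-3.97 ± 0.35), Ces1d (-3.45 ± 0.24), Ces2e (-1.98 ± 0.37), Ces2c (-1.86 ± 0.24) and Ces2a (-1.12 ± 0.33) were also lower. The call for Ces2a was lost without BSHlow replicate 3 of the 2-week colon, and that for Ugt1a7c without BSHhigh replicate 4.

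Members that were higher at 12 weeks, besides Cyp2c68, included Cyp2f2 (2.86 ± 0.38), Ces2f (2.70 ± 0.42), Ces2g (1.88 ± 0.18), Gstp3 (1.66 ± 0.16), Gsta3 (1.53 ± 0.19), Cyp2d10 (1.36 ± 0.18) and Gstm6 (1.15 ± 0.15). Ces2g read 6.02 to 15.9 CPM at 2 weeks and 29.3 to 45.9 CPM at 12 weeks, without overlap. The sulfotransferases Sult1d1 (-2.04 ± 0.15) and Sult1a1 (-1.85 ± 0.17) fell, while Sult1b1 (-0.34 ± 0.10), Sult1c2 (-0.65 ± 0.16) and the P450 Cyp2s1 (-0.32 ± 0.09) stayed within a log2 fold change of 1. So did Gstm1 (0.46 ± 0.10), Gsto1 (-0.81 ± 0.10) and Gstp1 (-0.89 ± 0.07), while Gstk1 (-1.59 ± 0.12) and Gsta4 (-1.32 ± 0.19) were lower.

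Tissue markers differed strongly between these libraries too. All 5 smooth muscle markers were higher at 12 weeks, at the summed levels given above. Of the 5 ileal markers (Fabp6, Apoa4, Sis, Slc10a2, Fabp2), 4 were lower at 12 weeks, and the sum of the list went from 1261 to 2642 CPM at 2 weeks to 17.8 to 54.3 CPM. Most of the 2-week sum was Fabp2 (mean 1316 CPM in BSHlow and 1148 CPM in BSHhigh colon) and Slc10a2 (535 and 669 CPM). Fabp6 averaged only 18.6 and 56.4 CPM there, and Apoa4 (-2.15 ± 1.07) did not pass. A set of 5 posterior Hox genes (Hoxb13, Hoxd10, Hoxd11, Hoxd12, Hoxd13), chosen after their values were seen, summed to 2.62 to 61.0 CPM at 2 weeks and 379 to 765 CPM at 12 weeks, all 5 higher. Cdx2, an intestinal homeobox factor, went from 312 to 427 CPM to 6.31 to 59.7 CPM (-4.21 ± 0.33). None of the 6 epithelial markers passed (median -0.28). Of the 6 mature colonocyte markers 3 were lower (Car1, Cdhr5, Krt20), with a list median of -0.64, while Car4 (0.22 ± 0.21), Aqp8 (-0.12 ± 0.51) and Slc26a3 (-0.17 ± 0.33) did not pass. Their sum went from 12309 to 24472 CPM to 2261 to 5121 CPM, mostly through Car1, which went from 6657 to 18480 CPM to 59.6 to 710 CPM. The part of these tissue differences in the enzyme differences was not tested.

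Within gene groups, neighbours often parted. In the Cyp2d group on chromosome 15, Cyp2d26 fell between 2 and 12 weeks (-4.09 ± 0.32) while Cyp2d10 and Cyp2d12 rose (1.36 ± 0.18 and 1.88 ± 0.33), and all 3 fell in tumors. In the Ces1 group Ces1g fell between 2 and 12 weeks and rose in tumors, whereas Ces1e fell in both (-2.45 ± 0.21 and -4.30 ± 0.47). Of the Gstm genes on chromosome 3, Gstm5 and Gstm7 rose in tumors while Gstm2 and Gstm3 fell. Counts of Gstm1 and Gstm3 were not whole numbers, that is, reads were shared out between genes, in 22 libraries each, and those of Gstm5, Gstm7 and Gstm2 in none.

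**Figure D5:**
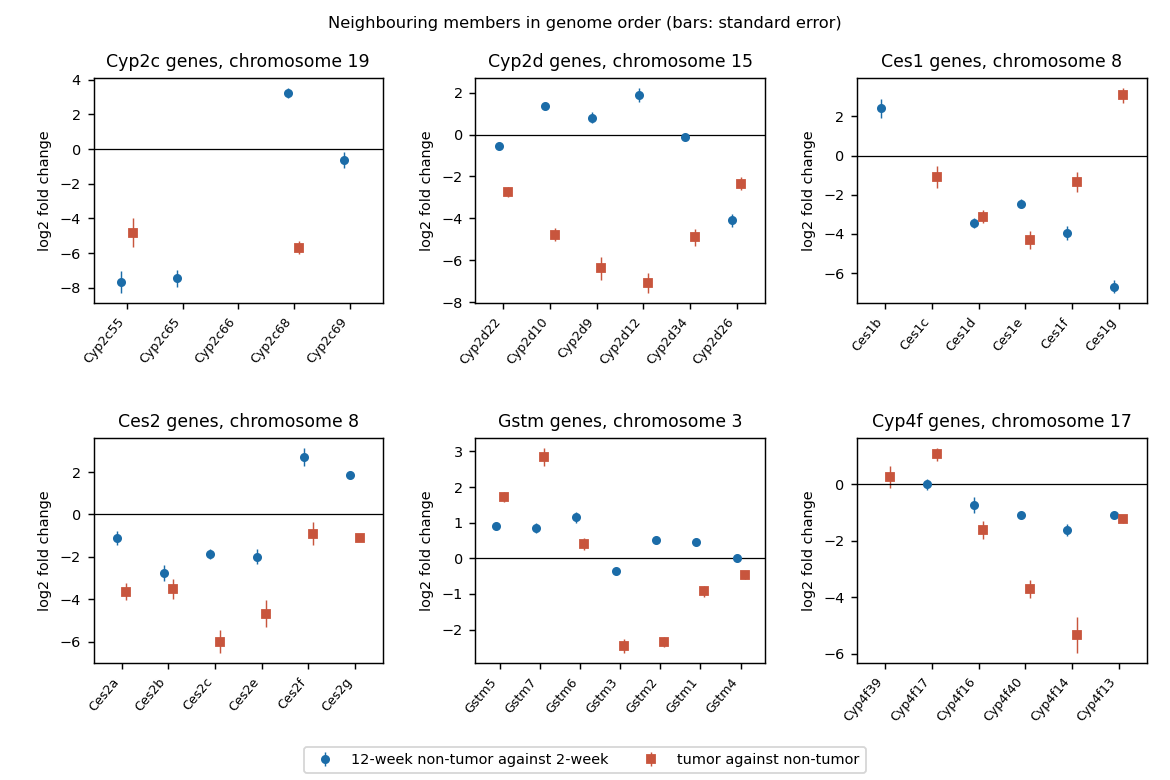
Log2 fold change of neighbouring members in genome order for 6 gene groups; circles compare 12-week non-tumor with 2-week colon, squares compare tumors with non-tumor tissues, bars are standard errors. Genes with at most 3 counts in every library of a group are left out, and Cyp2c55 and Cyp2c68 lie on opposite sides of 0 between 2 and 12 weeks.

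Genes that regulate or serve these enzymes followed only in part. Of 14 receptors and factors, 9 fell and 1 rose in tumors against non-tumor tissues. Over all genes tested 18.4% fell and 16.4% rose. Nr1i2 read 69.4 to 99.3 CPM in non-tumor tissues and 3.14 to 29.6 CPM in tumors (-2.99 ± 0.21), Vdr went from 300 to 414 CPM to 6.53 to 62.6 CPM (-3.85 ± 0.21), Hnf4a fell by 1.86 ± 0.16, and the bile acid receptor Nr1h4 by 3.03 ± 0.25. Ahr rose by 1.06 ± 0.14 and Nfe2l2 stayed at 0.05 ± 0.07. Of 12 genes that supply electrons or cofactors 4 fell (Ugp2, Ugdh, Papss1, Papss2, which make the donors of glucuronic acid and sulfate) and 0 rose. Por (-0.19 ± 0.11) and the glutathione synthesis gene Gclm (0.06 ± 0.13) did not pass.

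Other enzymes of drug and steroid metabolism mostly fell with the members. Of 18 tested, 13 fell, among them Adh1 (-5.63 ± 0.39) and Hsd11b2 (-5.04 ± 0.46), which inactivates glucocorticoids, and 1 rose, the epoxide hydrolase Ephx1 (1.18 ± 0.15). The 7 efflux pumps divided: Abcc2 went from 0.223 to 3.95 CPM to 35.2 to 104 CPM (5.31 ± 0.34), and Abcc4 (2.72 ± 0.12) and Abcb1b (1.55 ± 0.29) also rose, whereas Abcb1a (-3.24 ± 0.22), Abcg2 (-3.22 ± 0.31) and Abcc3 fell. Between BSHhigh and BSHlow tumors no gene of these 4 lists passed (12 receptors, 12 supply genes, 18 enzymes and 7 pumps tested). With 0.463% of all genes higher and 0.0131% lower, lists of this size could not show a difference from all genes. Closest by edgeR's test were Adh1 (3.20 ± 0.61, adjusted p = 0.061), Vdr (1.79 ± 0.34, adjusted p = 0.0627) and Mgst1 (1.04 ± 0.20, adjusted p = 0.0643). Among genes with a negative difference Abcc1 came closest (-0.34 ± 0.10, adjusted p = 0.177). The interaction with tissue passed for 2 of 14 receptors (Vdr, Nr1i2) and 3 of 18 other enzymes (Mgst1, Ephx2, Adh1). Each had a larger effect of BSHhigh in tumors, as had 0.972% of all genes. No supply gene or pump passed the interaction. Between 2 and 12 weeks 4 of 14 receptors and factors were lower (Nfe2l2, Ppara, Cdx2, Nr1h4), as were 4 of 12 supply genes (Papss2, Gclm, Ugdh, Gclc) and 7 of 18 other enzymes. In the other direction 3 other enzymes were higher at 12 weeks, Fmo1 (3.34 ± 0.45), Fmo2 (3.18 ± 0.26) and Adh1 (2.94 ± 0.16). Of the 7 pumps Abcb1b (2.21 ± 0.27) and Abcc4 (1.71 ± 0.17) were higher and Abcc3 and Abcb1a lower. Over all genes tested 8.02% were lower and 18.5% higher at 12 weeks.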

How the data were processed

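RNA-seq of 23 colon libraries was used. The authors trimmed reads with Cutadapt, aligned them with STAR to mm10 and deposited RSEM expected counts per gene; versions are not given in the sources used here. RSEM shares reads of near-identical genes between them by estimation, so single copies are less certain than their sums. 1 row that held text in place of numbers and 1 blank row were left out, leaving 55449 genes. The labels name a stranded total RNA preparation and the study's methods a stranded mRNA one. The 3 BSHhigh tumor columns, which carried repeated BSHlow headers, were assigned as a group. Nothing used here says that same-numbered libraries share a mouse.

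Expected counts were rounded and fitted with edgeR 4.0.16 (TMM scaling, filterByExpr, quasi-likelihood test) in R 4.3.3 with limma 3.58.1; levels are CPM on TMM-scaled library sizes. All genes were fitted, Benjamini-Hochberg adjustment ran over all of them, and a gene was called at an adjusted p under 0.05 and a log2 fold change past 1. Where a gene had at most 3 counts in every library of a group, mean CPM or a bound was given in place of a fitted fold. Tables and figures used Python 3.11.15, pandas 2.3.3, NumPy 2.4.6 and matplotlib 3.10.9. The fit was tested on simulated counts. Alternatives were DESeq2 1.42.0, RLE size factors, other filters, single libraries left out, a replicate block and 1 fit over all libraries.

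Genes were named by rule (in each comparison up to 8 members per direction with the largest change, among those called, not overlapping except in the interaction, and with a mean of at least 1 CPM, plus a fixed list of members); further genes and the posterior Hox list were added after their values were seen. The members and lists were chosen with earlier results of these data known.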

Additional observations from a re-analysis of the deposited data

Results flagged for a closer look

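In 15 of 220 pairs of a member and a group of 4 libraries, 1 library stood apart from the other 3 by Dixon's test on log2(CPM + 1), run where a library of the group reached 5 CPM. Chance flags about 1 in 20 groups where these are independent. Members measured in the same library need not vary independently, so the count cannot be judged against that share. Replicate 3 of the BSHhigh colon at 2 weeks was low in 5 members: Ces2a at 120 CPM (the others 329 to 368), Ces2c at 758 CPM (1311 to 1433), Cyp3a13 at 361 CPM (477 to 488), Cyp3a44 at 0.45 CPM (5.66 to 7.52) and Cyp4b1 at 50.7 CPM (234 to 300). The summed level of all members in that library was 9139 CPM, against 14081 to 16862 CPM in the other replicates of its group. In BSHlow colon at 2 weeks, replicate 4 was low in Cyp2c55 at 895 CPM (2101 to 2260) and in Cyp2d34 at 136 CPM (179 to 188), and replicate 3 was high in Ces2g at 15.9 CPM (9.23 to 9.51). In BSHlow non-tumor tissues, replicate 4 was high in Ces2c at 649 CPM (207 to 230) and in Cyp4f14 at 252 CPM (89.8 to 102). In BSHhigh non-tumor tissues, replicate 2 was high in Cyp2f2 at 37.0 CPM (15.2 to 16.1), and replicate 4 was low in Gstm7 at 6.98 CPM (9.12 to 9.43) and in Gstp2 at 49.9 CPM (56.4 to 57.7). In BSHlow tumors, replicate 4 was high in Gstm4 at 10.5 CPM (8.03 to 8.05) and replicate 1 in Gstp2 at 58.1 CPM (47.4 to 48.5).

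For 11 members the BSHhigh against BSHlow difference was larger in tumors than in non-tumor tissues, by the interaction term of edgeR's quasi-likelihood fit. On the log2 scale the terms were 5.81 for Cyp2d9 (adjusted p = 0.0259), 5.76 for Ces2e (adjusted p = 0.0272), 5.72 for Sult1b1 (adjusted p = 0.00595) and 5.44 for Ces2c (adjusted p = 0.0151). They were 4.40 for Sult1d1 (adjusted p = 0.0151), 4.30 for Cyp4f40 (adjusted p = 0.00595), 4.21 for Cyp2d34 (adjusted p = 0.0166) and 3.94 for Sult1c2 (adjusted p = 0.0314). The lowest were 2.99 for Cyp2s1 (adjusted p = 0.0187), 2.41 for Cyp2d10 (adjusted p = 0.0417) and 1.66 for Gstt1 (adjusted p = 0.0316). The size of the term for Cyp2d9 rests on BSHlow tumors with 5, 0, 0 and 0 counts.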

How the results depend on the processing

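The counts of members called between tumors and non-tumor tissues, and between 2 and 12 weeks, stayed within 1.5 times under every alternative run. Those between colonizations in tumors did not. Higher in BSHhigh tumors were 4 members, against 18 by DESeq2 (with 1 lower), 12 with no filter on low counts, 19 with all 23 libraries in one fit, and 0 to 9 when single libraries were left out (0 to 1 lower). The interaction called 11 members higher, against 17 by DESeq2 and 5 to 18 when single libraries were left out. Over all genes, the tumor comparison called 71 higher and 2 lower, and DESeq2 489 and 45, no filter 308 and 12, and all 23 libraries in one fit 566 and 12. The interaction called 160 and 1, and DESeq2 378 and 8. Between colonizations DESeq2 called 39 and 14 genes in non-tumor tissues and 20 and 8 at 2 weeks, where edgeR called 0 and 0, and 1 and 0. The cause was not tested.

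Some members that had not passed changed sign. Gstp1 between tumors and non-tumor tissues was -0.04 with RLE size factors and with DESeq2, -0.00 with a filter of 1 CPM in 3 libraries, -0.09 in BSHlow libraries with or without the replicate block, and -0.05 to 0.04 with single libraries left out. The interaction of Cyp1b1 was 0.00 with no filter and -1.34 to 1.44 with single libraries left out, and those of Cyp2b10 (1.05), Cyp2c55 (-1.02) and Cyp4b1 (0.74) were -0.62 to 2.90, -2.02 to 0.67 and -0.78 to 1.64. Between colonizations in tumors Gstm1 was 0.00 with all 23 libraries in one fit and -0.19 to 0.22 with single libraries left out, Gsto1 -0.01 to 0.50 and Ugt1a1 -0.39 to 0.61. Over values of single members, 2694 kept direction and side of the threshold, 34 gained a call, 91 lost one and 30 changed sign.

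Same-numbered libraries were not taken as pairs: over 5 pairs of groups the correlations of their deviations ran from -0.22 to 0.32, and no pair of groups had all of them above 0.1. With the replicate block, 55 members were called in the BSHlow libraries between tumors and non-tumor tissues, against 56 without it.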
